A study of Mus musculus with 16 samples.

Results

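The genes described here encode the nuclear subunits of the mitochondrial respiratory chain and of ATP synthase, with 7 assembly factors of complex I, measured in conventional type 1 dendritic cells (cDC1s) of mouse spleen. They were chosen by name: every symbol of the deposited normalized table that begins with Nduf, Uqcr, Cox4i, Cox5, Cox6, Cox7, Cox8 or Atp5, or is Sdha, Sdhb, Sdhc or Sdhd. This gave 85 of the 11843 genes of that table. The rule used no measured difference, but it took only genes that the authors kept in the normalized table. A further 7 matching symbols stood in the raw count table alone (Cox4i2, Cox7a1, Cox7b2, Cox8b, Cox8c, Ndufa4l2 and Ndufs5). They had 0 to 41 counts summed over all libraries and were not tested. Ndufs5, a complex I subunit, had 23 counts, but 41.2% of the short windows of its transcript also occur in BC002163. Its counts are uncertain, so they do not show that Ndufs5 is unexpressed. Counts over the 85 genes are therefore a description of the genes that were kept.

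RNA was sequenced in bulk from 16 libraries of sorted cDC1s, in 4 groups of 4. The groups were immature and mature cells from Xbp1fl mice, and immature and mature cells from Xbp1flIre1fl mice, all on the C57BL6 strain, with no treatment beyond steady state. Xbp1fl mice carry a loxP-flanked allele of Xbp1, which encodes a regulator of the response to misfolded protein in the endoplasmic reticulum, and Xbp1flIre1fl mice also carry such an allele of the gene for IRE1, the sensor upstream of it. Per the labels no allele was deleted, so all 4 groups count as functionally wild type. The gates of the sort, the ages of the mice and any pooling of animals are not given in the sources used here. The labels do not say that replicates came from separate mice, so p-values rest on the spread among libraries alone, which may be technical.

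The respiratory chain passes electrons from NADH (through complex I) and from succinate (through complex II) to ubiquinone, then through complex III and cytochrome c to complex IV, which reduces oxygen. Complexes I, III and IV pump protons out of the mitochondrial matrix, and ATP synthase, or complex V, makes ATP as the protons flow back. Most subunits are encoded in the nucleus and a few in mitochondrial DNA; the latter were not analysed here. Dendritic cells are known to move from oxidative metabolism towards glycolysis when they are activated by microbial stimuli, and mature cDC1s at steady state are those that switch on the chemokine receptor Ccr7 without such a stimulus.

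Total counts per library ranged from 13948232 to 17000763, and 3 counts corresponded to 0.176 to 0.215 CPM, the usual unit of counts scaled to library size. Of the 85 genes, 78 had at least 100 counts in every library. All 85 were among the 11978 genes tested. Ccr7 ran from 4988 to 13425 CPM in the mature libraries and from 107 to 320 CPM in the immature ones. Summed cDC1 markers (11 genes, 3 higher and 5 lower in mature cells) ran from 6012 to 8476 CPM in mature and from 8789 to 9921 CPM in immature libraries, and the defining markers Xcr1 and Clec9a were present in every library. Markers of other cells were also higher in mature libraries: 10 of 10 B cell genes (summed 323 to 1106 against 106 to 167 CPM), 8 of 10 macrophage genes (566 to 1127 against 161 to 590 CPM), 4 of 5 T cell genes (45.0 to 82.2 against 24.5 to 38.4 CPM) and 4 of 5 genes of type 2 dendritic cells (155 to 307 against 58.0 to 95.7 CPM). No gene rose among 4 of NK cells, 4 of neutrophils, 4 of plasmacytoid dendritic cells and 2 of red cells, and Hbb-bs of red cells was at most 0.466 CPM. The part of these other cells in the differences below was not tested, and in bulk RNA fewer cells of a type and less RNA per cell cannot be told apart.

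Most respiratory chain and ATP synthase genes were modestly lower in mature than in immature cDC1s. In the edgeR quasi-likelihood test with Benjamini-Hochberg adjustment over all genes tested, with both genotypes averaged, 66 of the 85 genes fell, 3 rose (Cox5a, Uqcrh and Ndufa1) and 16 did not pass. Over all genes tested, 34.2% were called lower and 33.4% higher. The median log2 fold change of the 85 genes was -0.29, beside -0.01 over all genes. Changes were small in size: 3 of the 85 genes fell by more than 1.5-fold (Ndufaf6, Ndufaf4 and Cox6b2), while 10.5% of all genes did so. No member rose by more than 1.5-fold, which 2315 of all 11978 genes did. In 27 of the 85 genes (31.8%) each of the 8 mature libraries lay below each of the 8 immature libraries, and the background was 15% of all genes. For no member did all mature libraries lie above all immature ones. With same-numbered libraries of a genotype as blocks, 68 genes fell and 3 rose, Atp5sl and Uqcr10 being the 2 added, beside 35.5% of all genes lower and 34.2% higher. The plot of stage differences by gene shows the shift and the genes outside it.

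**Figure D1:**
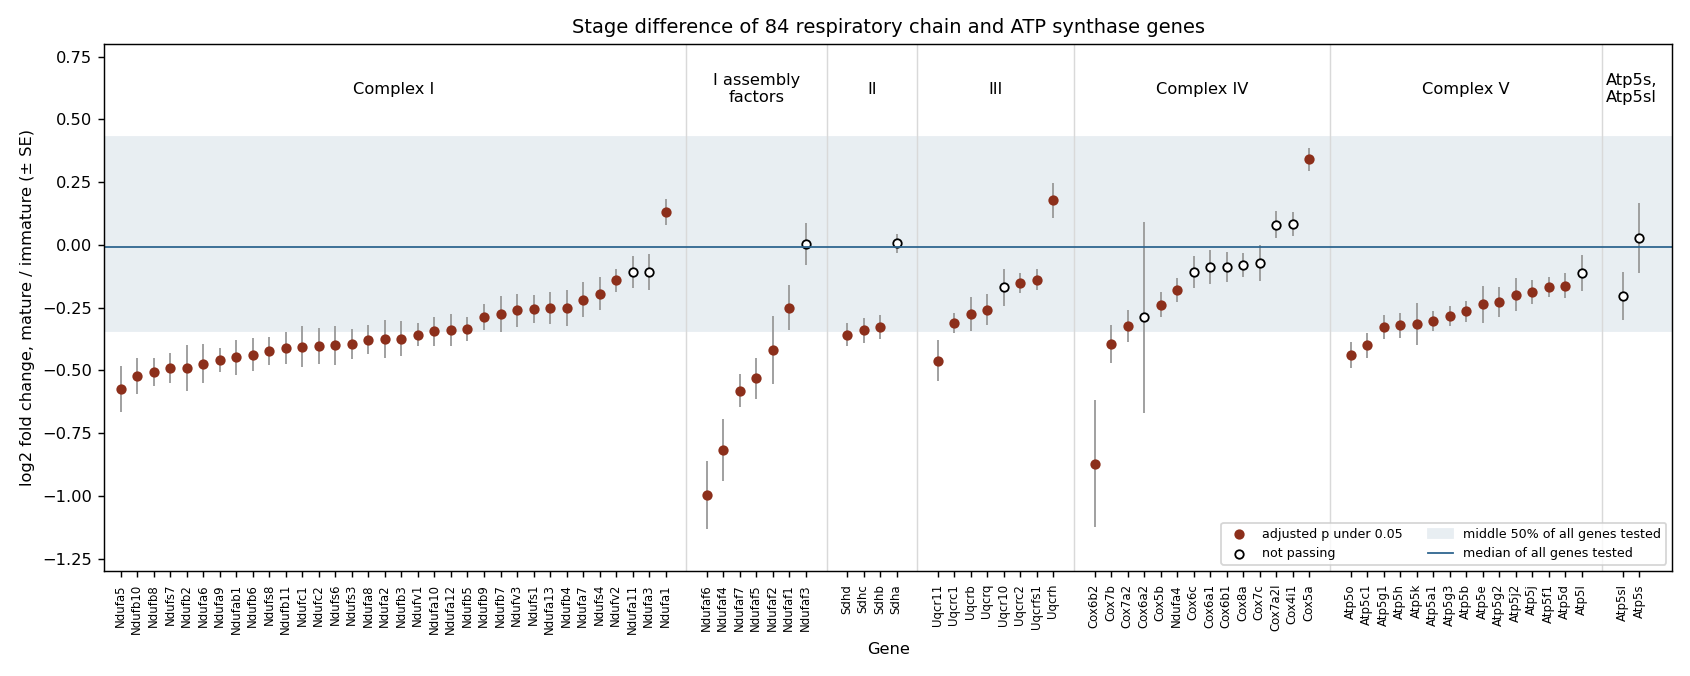
Log2 fold change of mature over immature cells with its standard error (vertical axis) for 84 of the 85 genes (horizontal axis), grouped by complex. Filled points passed the test (65 lower, 3 higher) and open points did not (16). The shaded band holds the middle 50% of all genes tested and the line their median of -0.01. Most genes of complexes I and V lie below zero, while most of complex IV lie near it.

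The complexes differed in how many genes fell. In complex I, 32 of 35 subunit genes fell and 1 rose, with a median log2 fold change of -0.37. Of its 7 assembly factors 6 fell, with a median of -0.53. In complex II, 3 of 4 genes fell (median -0.33). Complex III had 6 of 8 lower and 1 higher (median -0.21). Complex IV stood at the other end, with 5 of 14 lower (35.7%), 1 higher (7.14%) and 8 not passing (median -0.10). Its lower share was close to the 34.2% of all genes, and its higher share was below their 33.4%. With upper quartile scaling 10 of the 14 were lower, beside 43.7% of all genes, and with library sizes alone 12, beside 50.9%. In complex V, 14 of 15 genes fell (median -0.26). Atp5s and Atp5sl, which match the name rule but are not ATP synthase subunits, did not pass (log2 fold changes of 0.03 and -0.20). Atp5sl passed as lower with upper quartile scaling (adjusted p = 0.00805), with library sizes alone (0.00138) and with same-numbered libraries of a genotype as blocks (-0.21, adjusted p = 0.0331). The differences between complexes were not tested, since the genes of a complex are not replicates.

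These values depend on how libraries are scaled. With upper quartile scaling in place of TMM, the median of all genes moved from -0.01 to -0.13, and with library sizes alone to -0.23. The calls over all genes then shifted from 3995 higher and 4100 lower to 3213 and 5237, and to 2716 and 6091. Of the 85 genes, 77 and then 80 were called lower, and all 66 genes named lower under TMM were among them each time. Since both scalings move all genes down, those 66 could hardly lose their calls. Complex IV changed most, from 5 lower genes to 10 and to 12 of 14. A change of scaling moves all genes by nearly the same amount, so values relative to the median of all genes must hardly move. On that measure complex I was at -0.36 under each of the 3 scalings and complex IV at -0.09 under each. The likeness of these values is therefore no check of the result. Directions near zero therefore depend on the scaling, and for most such genes named below the values under the other scalings are given.

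**Figure D2:**
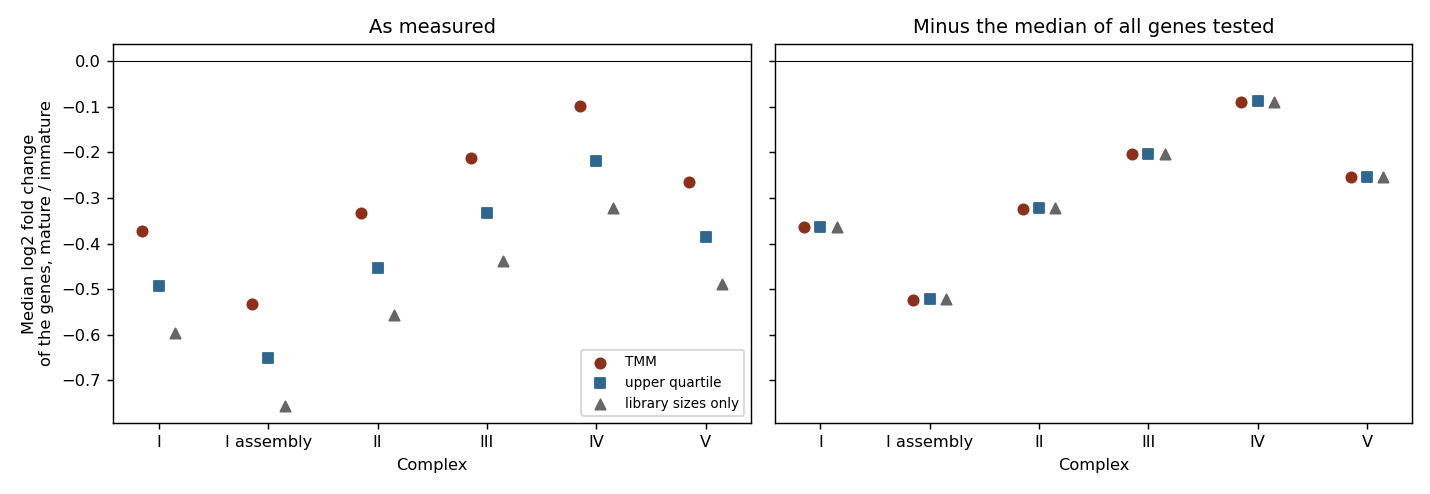
Median log2 fold change of mature over immature cells (vertical axis) for the genes of each complex (horizontal axis) under 3 scalings of the libraries. On the left the medians shift together with the scaling, for complex IV from -0.10 to -0.32. On the right, after the median of all genes is taken away, the 3 scalings coincide. They must, since a scaling moves all genes by nearly the same amount.

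Summed levels add up the CPM of the genes of a complex in each library, without correction for transcript length or number of genes. The 85 genes together summed to 8940 ± 221 CPM (SD, n = 8) in immature and 7612 ± 381 CPM (SD, n = 8) in mature libraries, a drop of 14.9%, and the stages did not overlap. Complex I fell by 20.6%, from 1921 ± 75.3 to 1527 ± 108 CPM (SD, n = 8 each), without overlap. Its assembly factors fell by 28.6%, from 92.8 ± 3.33 to 66.3 ± 5.61 CPM, again without overlap. The sum for complex II fell by 10.7%, from 680 ± 17.97 to 607 ± 18.3 CPM, without overlap. In complex III the sum fell by 13.6%, from 900 ± 28.2 to 778 ± 40.5 CPM, and 7 of 8 mature libraries lay below the lowest immature one. Complex IV summed to 1351 ± 67.7 CPM in immature and 1320 ± 91.4 CPM in mature libraries, a difference of -2.27% that was smaller than the spread between libraries, and 1 of 8 mature libraries lay below the lowest immature one. Complex V, the largest sum, fell by 17.1%, from 3978 ± 64.7 to 3298 ± 143 CPM, without overlap. All these values are under TMM. With upper quartile scaling the complex IV difference was -10.1%, and 6 of 8 mature libraries lay below the lowest immature one. With library sizes alone it was -16.4%, without overlap. The stages of complex III did not overlap under either of these scalings. These sums were described and not tested.

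**Figure D3:**
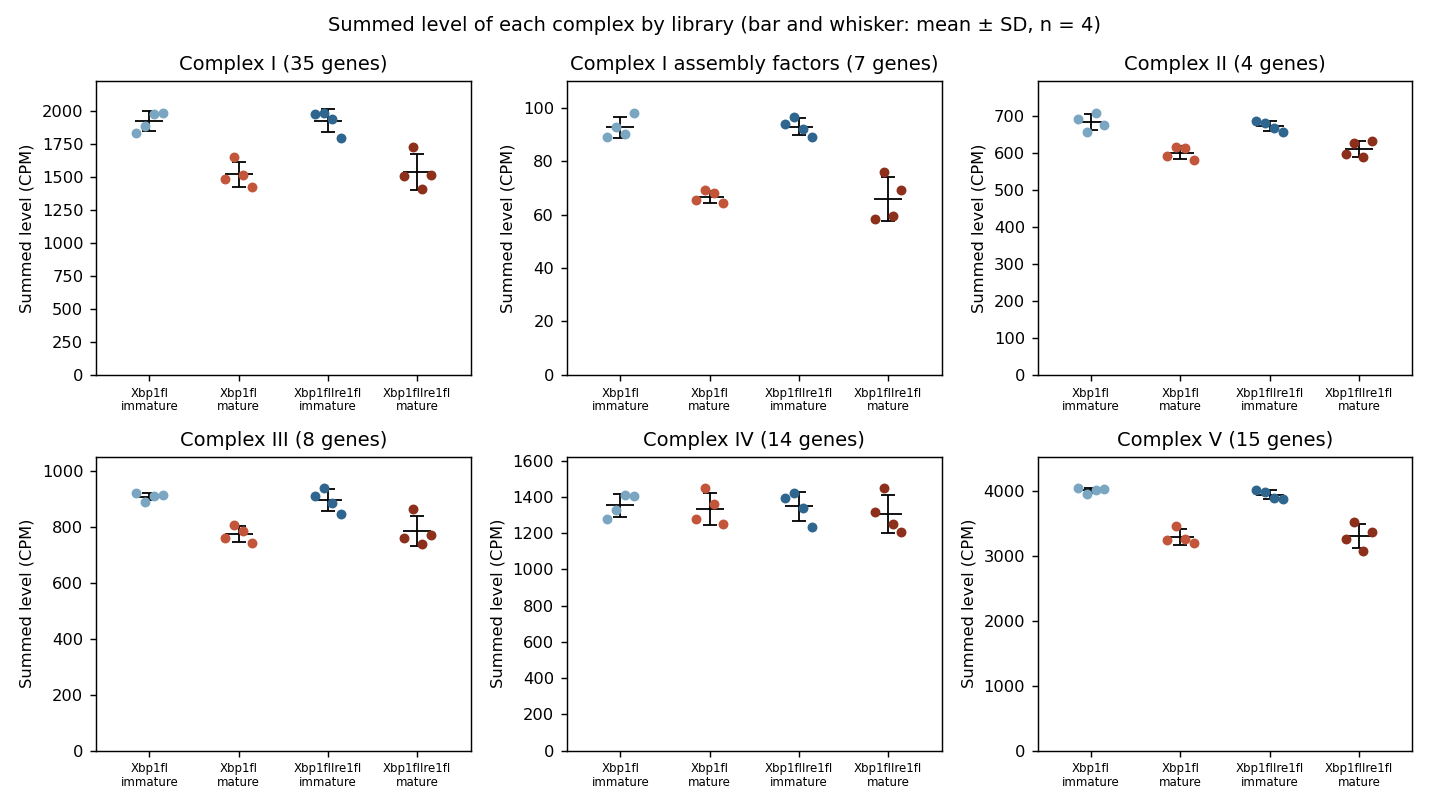
Summed level of the genes of each complex in CPM (vertical axes, from 0) in each library of the 4 groups (horizontal axes). Points are libraries, and bars with whiskers are the mean and SD (n = 4). Under the TMM scaling shown, complexes I, II and V and the assembly factors are lower in all 8 mature libraries. Complex IV overlaps between the stages under that scaling.

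Ratios of 2 complexes within a library do not depend on the scaling. The summed CPM of complex IV stood at 0.688 to 0.715 of that of complex I in the immature libraries (median 0.706). In the mature libraries it stood at 0.798 to 0.900 (median 0.876), with no overlap. The sums were not corrected for transcript length or number of genes, so such ratios compare the stages and not the amounts of the complexes. The lowest mature ratio came from Xbp1flIre1fl replicate 4. Complex III stood at 0.456 to 0.502 of complex I in immature and 0.488 to 0.526 in mature libraries, and complex II at 0.341 to 0.378 against 0.365 to 0.420, so that both ranges overlapped between the stages. The ratio of complex V to complex I ranged from 2.00 to 2.21 in immature and from 2.04 to 2.24 in mature libraries, which overlapped for most of their length. Between the mature and the immature library of the same number and genotype, the ratios of complexes II, III and IV to complex I were each higher in the mature one in 8 of 8 pairs, and that of complex V in 6 of 8. In complex II, Sdha alone held 323 to 345 CPM of a sum of 583 to 632 CPM in mature libraries. Sdha did not change detectably, so the rise of the complex II ratio cannot be read as shared by Sdhb, Sdhc and Sdhd, which fell. These ratios were described and not tested.

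**Figure D4:**
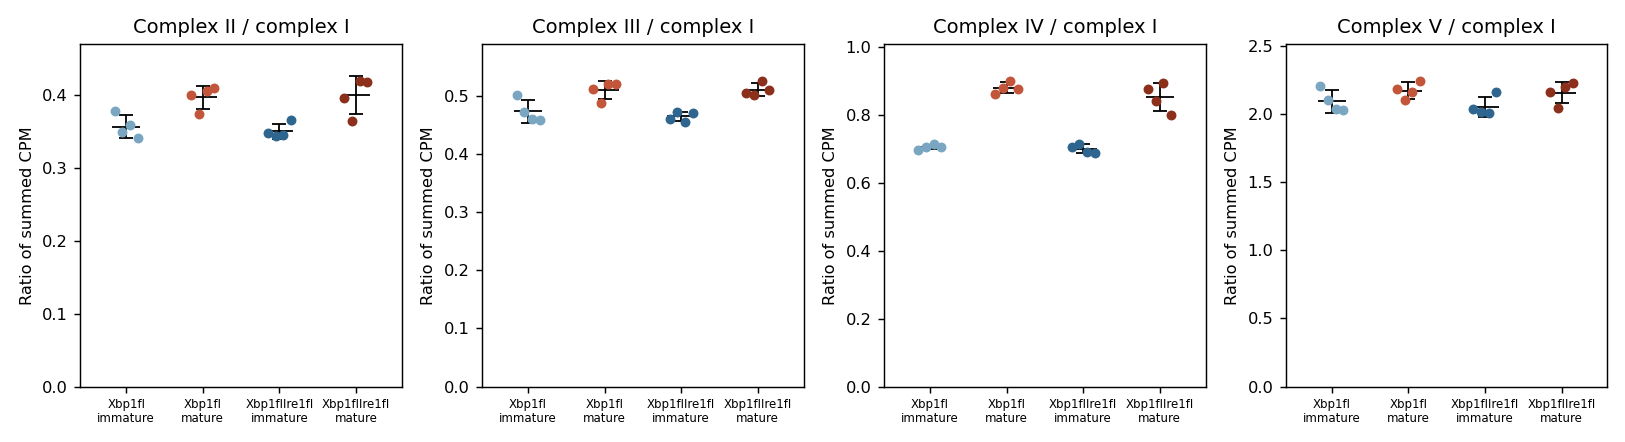
Summed CPM of complexes II, III, IV and V divided by that of complex I (vertical axes, from 0) in each library of the 4 groups (horizontal axes). Points are libraries, and bars with whiskers are the mean and SD (n = 4). The complex IV ratio is 0.688 to 0.715 in all immature libraries and 0.798 to 0.900 in all mature ones, while the ranges of the other ratios overlap.

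Promoter sequence is printed below for 7 genes whose values are described, so that the genes that fell and those that rose can be compared. Sequences are from RefSeq on GRCm38.p6, 250 bases before the annotated start, and 72 of the 85 genes had an entry. The genes were picked after their values were seen. Capitals mark exact matches, on either strand, to the cores of 4 factors known to bind promoters of mitochondrial genes. They were CGCATGCGC for NRF1, CCGGAAG for ETS factors such as GABPA, AAGATGG for YY1 and TCAAGGTCA for the estrogen-related receptors. No core is contained in another, but the NRF1 core can match both strands of one stretch, which is then counted as 1 gene. The NRF1 core was in 7 of the 72 genes (9.72%) and in 1.64% of the promoters of all 27025 genes searched. The ETS core was in 13 (18.1%, against 7.83% of all), the YY1 core in 2 (2.78%, against 5.18%) and the estrogen-related receptor core in 1 (1.39%, against 0.422%). Among the 56 genes with an entry that fell, 9 held the ETS core and 4 the NRF1 core. Of the 13 that did not pass, 3 held the ETS core and 3 the NRF1 core. A match describes the letters of the window and says nothing of binding. The RefSeq start of Atp5g2 lies 1305 bases inside the gene as GENCODE vM21 gives it (chromosome 15, 102662864 to 102672352), so the whole window printed for it lies within that gene. For the other six genes the 2 starts lie at most 42 bases apart.

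The core of complex I carries the flavin and the iron-sulphur clusters that take electrons from NADH to ubiquinone. The core genes Ndufv1, Ndufs1, Ndufs3 and Ndufs8 fell, with log2 fold changes of -0.36, -0.26, -0.39 and -0.42. Ndufs7, which carries the last iron-sulphur cluster before ubiquinone, fell further (log2 fold change -0.49, SE 0.06, adjusted p = 1.46e-06). Ndufv2, a subunit of the NADH-oxidising tip, fell only slightly (log2 fold change -0.14, SE 0.04, adjusted p = 0.00833).

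The accessory subunits surround the core of complex I and are needed for its assembly and stability. Of 28 accessory genes 25 fell, 1 rose and 2 (Ndufa11 and Ndufa3) did not pass. Ndufa11 and Ndufa3 passed as lower with upper quartile scaling (-0.23 and -0.23) and with library sizes alone (-0.33 and -0.33). Ndufa9 (chromosome 6, 126821721 to 126849136, minus strand, on GRCm38), an accessory subunit at the junction of the 2 arms of the complex, had the smallest adjusted p. Its lowest, median and highest levels were 103, 112 and 117 CPM in immature and 75.1, 79.5 and 93.0 CPM in mature libraries. The stages did not overlap, and Ndufa9 fell by 0.46 on the log2 scale (SE 0.05, adjusted p = 2.12e-07). Ndufb8, a subunit of the membrane arm, ran from 77.4 to 90.8 CPM (median 86.3) in immature and from 51.5 to 67.7 CPM (median 59.9) in mature libraries. Again no mature library reached the immature range (log2 fold change -0.50, SE 0.06, adjusted p = 3.87e-07). Ndufb8 also had the highest level per length in complex I, at 107 CPM per kb of transcript. The largest fall among the subunits was that of Ndufa5 (log2 fold change -0.57, SE 0.09, adjusted p = 2.53e-05), from a median of 14.6 to 10.3 CPM.

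Ndufa1, a small membrane subunit needed for assembly, went the other way. Its immature libraries held 30.1, 35.5 and 39.3 CPM at the lowest, median and highest, and its mature libraries 35.5, 38.4 and 41.3 CPM. The stages overlapped, and the rise was slight (log2 fold change 0.13, SE 0.05, adjusted p = 0.0376). The call was lost when any of 9 single libraries was left out (Xbp1fl mature 2 or 3, Xbp1fl immature 1, 2 or 4, Xbp1flIre1fl mature 2 or 3, Xbp1flIre1fl immature 1 or 4), with adjusted p from 0.0595 to 0.0895. Under upper quartile scaling the value was 0.01 and with library sizes alone it turned to -0.09, neither passing. It was kept with same-numbered libraries of a genotype as blocks (adjusted p = 0.0243), and the mature library was the higher one in 8 of 8 such pairs. It was lost without the filter on low counts (adjusted p = 0.113) and without the 2 mature libraries of lowest Ccr7 (adjusted p = 0.0541).

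Assembly factors are proteins that help build complex I and are not part of the finished enzyme, and Ndufaf6 among them had the largest fall of the 85 genes. It held 13.1, 14.98 and 16.9 CPM at the lowest, median and highest of the immature libraries and 4.71, 7.55 and 10.8 CPM in the mature ones. The stages did not overlap, and the level fell by 49.8% (log2 fold change -0.995, SE 0.14, adjusted p = 4.26e-06). Ndufaf4 ran from 11.4 to 14.9 CPM (median 12.54) in immature and from 5.41 to 11.2 CPM (median 6.81) in mature libraries. Its stages did not overlap either (log2 fold change -0.82, SE 0.12, adjusted p = 1.35e-05). Ndufaf7, a methyltransferase, ran from 20.4 to 24.2 CPM (median 21.5) in immature and from 13.1 to 16.6 CPM (median 15.2) in mature libraries. It fell by 0.58 on the log2 scale without overlap (SE 0.07, adjusted p = 4.83e-07). Ndufaf3 did not change detectably (log2 fold change 0.00, SE 0.08, adjusted p = 0.979). With library sizes alone Ndufaf3 passed as lower (-0.22, adjusted p = 0.0197), and with upper quartile scaling it did not (-0.12). The promoter of Ndufaf4 (chr4:24897833-24898082, plus strand) is shown because the gene fell strongly and holds the NRF1 core, which ends 103 bases before the start.
Ndufaf4: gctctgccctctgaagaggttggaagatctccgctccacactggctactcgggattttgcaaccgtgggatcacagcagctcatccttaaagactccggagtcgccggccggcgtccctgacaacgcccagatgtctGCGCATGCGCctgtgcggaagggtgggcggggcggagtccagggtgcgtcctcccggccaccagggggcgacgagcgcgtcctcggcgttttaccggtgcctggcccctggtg

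Complex II is the succinate dehydrogenase, which belongs to both the respiratory chain and the citric acid cycle. Its iron-sulphur subunit Sdhb and both membrane anchors, Sdhc and Sdhd, fell, and in each the stages did not overlap. Sdhd held 136, 145 and 153 CPM at the lowest, median and highest of the immature libraries and 106, 112 and 124 CPM in the mature ones (log2 fold change -0.36, SE 0.04, adjusted p = 1.55e-06). Sdhc ran from 63.0 to 69.5 CPM (median 66.0) in immature and from 47.9 to 60.6 CPM (median 50.3) in mature libraries. It fell by 0.34 on the log2 scale (SE 0.05, adjusted p = 9.31e-06).

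Sdha, the catalytic flavoprotein of complex II and its gene of highest level per length, was an exception. Its levels were 314, 325 and 351 CPM at the lowest, median and highest of the immature libraries and 323, 329 and 345 CPM in the mature ones. The ranges overlapped almost fully, and no difference was detected (log2 fold change 0.01, SE 0.04, adjusted p = 0.905). The sign of that value turned in several single-library omissions (lowest -0.01). With upper quartile scaling it was called lower (-0.12, adjusted p = 0.0133), and with library sizes alone as well (-0.22, adjusted p = 0.000138). Relative to the median of all genes it stood at 0.02 under TMM and 0.01 under both other scalings. The promoter of Sdhd (chr9:50603850-50604099, minus strand) is shown as that of a gene that fell and holds the ETS core, written on the opposite strand and ending 39 bases before the RefSeq start.
Sdhd: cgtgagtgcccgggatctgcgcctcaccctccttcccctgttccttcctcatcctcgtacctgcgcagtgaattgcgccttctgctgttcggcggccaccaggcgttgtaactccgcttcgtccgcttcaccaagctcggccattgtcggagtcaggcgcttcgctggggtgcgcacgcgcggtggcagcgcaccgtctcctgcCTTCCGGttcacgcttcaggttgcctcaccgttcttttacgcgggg

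In complex III, which passes electrons from ubiquinol to cytochrome c, the core protein gene Uqcrc1 held 267, 277 and 293 CPM at the lowest, median and highest of the immature libraries and 216, 224 and 242 CPM in the mature ones. It was the only gene of the complex whose stages did not overlap, and it fell by 19.4% (log2 fold change -0.31, SE 0.04, adjusted p = 1.24e-06). Uqcr11, a small accessory subunit, fell further, from a range of 38.05 to 49.4 CPM (median 45.3) to one of 26.8 to 39.9 CPM (median 32.8). There 7 of 8 mature libraries lay below the immature range (log2 fold change -0.46, SE 0.08, adjusted p = 6.81e-05). Uqcrb, which lies near the ubiquinone site, had the highest level per length, at 158 CPM per kb, and fell by 0.27 on the log2 scale (SE 0.07, adjusted p = 0.00161). Of its 50-base windows, 43.2% are shared with other transcripts, so its counts are uncertain. Uqcrfs1, the Rieske iron-sulphur protein, and Uqcrc2 fell by small amounts (log2 fold changes of -0.14 and -0.15). Uqcr10 did not pass and fell with same-numbered libraries as blocks (-0.17, adjusted p = 0.0168). It also passed as lower with upper quartile scaling (-0.29) and with library sizes alone (-0.39).

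Uqcrh, the hinge protein at the cytochrome c1 side of complex III, ran from 41.4 to 52.8 CPM (median 46.8) in immature and from 47.6 to 60.0 CPM (median 53.1) in mature libraries. These ranges overlapped, and the gene passed as higher (log2 fold change 0.18, SE 0.07, adjusted p = 0.0283). That call was lost when any of 7 single libraries was left out (Xbp1fl mature 2 or 3, Xbp1fl immature 2 or 4, Xbp1flIre1fl mature 2, Xbp1flIre1fl immature 1 or 4), with adjusted p from 0.0515 to 0.0725. Under upper quartile scaling the value was 0.06, and with library sizes alone it turned to -0.05, neither passing. Without the filter on low counts its adjusted p was 0.0593. With same-numbered libraries as blocks it was 0.00676, and Uqcrh was higher in the mature library in 8 of 8 pairs. The Uqcrh promoter (chr4:116075071-116075320, minus strand) also holds the ETS core on the opposite strand, ending 3 bases before the start, and is shown to set beside that of Sdhd.
Uqcrh: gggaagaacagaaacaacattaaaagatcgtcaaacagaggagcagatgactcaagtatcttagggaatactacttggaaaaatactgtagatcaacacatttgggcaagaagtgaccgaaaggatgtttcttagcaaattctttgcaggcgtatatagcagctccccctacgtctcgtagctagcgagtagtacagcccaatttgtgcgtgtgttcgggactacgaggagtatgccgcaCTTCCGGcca

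Complex IV is cytochrome c oxidase, and its nuclear genes surround a catalytic core encoded in mitochondrial DNA. Cox5a (chromosome 9, 57521274 to 57532426, plus strand, on GRCm38), a subunit that joins the core early in assembly, was the clearest rise. Its immature libraries held 124, 129 and 147 CPM at the lowest, median and highest, and its mature libraries 145, 169 and 174 CPM. The ranges touched, since the highest immature library lay just above the lowest mature one. The level rose by 26.6% (log2 fold change 0.34, SE 0.05, adjusted p = 5.05e-06), in both genotypes (0.39 in Xbp1fl, adjusted p = 9.4e-05, and 0.29 in Xbp1flIre1fl, adjusted p = 0.0013). With library sizes alone the value shrank to 0.11. Relative to the median of all genes it was 0.35, a measure that a change of scaling leaves nearly fixed. The promoter of Cox5a (chr9:57520982-57521231, plus strand) held none of the 4 cores.
Cox5a: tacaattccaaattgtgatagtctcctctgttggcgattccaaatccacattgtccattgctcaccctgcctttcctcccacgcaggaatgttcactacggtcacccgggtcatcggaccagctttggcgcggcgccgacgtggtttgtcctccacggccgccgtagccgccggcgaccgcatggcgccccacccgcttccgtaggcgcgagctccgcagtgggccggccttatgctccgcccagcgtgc

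Cox4i1, the ubiquitous form of subunit 4 and the complex IV gene of highest level per length (344 CPM per kb), held 230, 254 and 266 CPM at the lowest, median and highest of the immature libraries. Its mature libraries held 241, 264 and 289 CPM. These overlapped, and no difference was detected (log2 fold change 0.08, SE 0.05, adjusted p = 0.141). The value turned to -0.04 with upper quartile scaling and to -0.14 with library sizes alone, where it passed (adjusted p = 0.00741). The alternative form Cox4i2, known for its use under low oxygen, had 19 counts over all 16 libraries.

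Other complex IV genes divided between those that fell and those near zero. Cox7b, a small subunit of the membrane face, ran from 65.7 to 78.4 CPM (median 75.01) in immature and from 43.8 to 69.6 CPM (median 54.3) in mature libraries. There 7 of 8 mature libraries lay below the immature range (log2 fold change -0.40, SE 0.08, adjusted p = 0.000166). Cox7a2, the form of subunit 7a found in most tissues, ran from 58.9 to 66.5 CPM (median 62.4) in immature and from 42.3 to 61.0 CPM (median 49.0) in mature libraries. It also fell (log2 fold change -0.32, SE 0.06, adjusted p = 0.000216). Ndufa4, first assigned to complex I and now counted as a complex IV subunit, fell by 0.18 on the log2 scale (SE 0.05, adjusted p = 0.00281).

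For 8 complex IV genes the test did not pass, with log2 fold changes from -0.29 to 0.08 and SEs from 0.05 to 0.38. Cox6a1, Cox6b1 and Cox8a had values of -0.09, -0.09 and -0.08. Each passed as lower with upper quartile scaling (-0.21, -0.21 and -0.20). Cox6a1 also passed without Xbp1flIre1fl mature replicate 2, which held 208 CPM (log2 fold change -0.14, adjusted p = 0.0447). Cox7a2l, a factor that joins complexes III and IV into supercomplexes, was at 0.08 (SE 0.05, adjusted p = 0.201), and turned to -0.04 and -0.14 with the other scalings.

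Tissue-restricted forms of complex IV subunits were close to the detection limit. Cox6a2, the form of heart and skeletal muscle, had 3 to 25 counts per library and no detectable difference at this depth (log2 fold change -0.29, SE 0.38, adjusted p = 0.516). Cox6b2, the testis form, had 4 to 28 counts per library. Its range was 0.621 to 1.61 CPM (median 1.31) in immature and 0.275 to 1.23 CPM (median 0.658) in mature libraries. The stages overlapped, and it passed as lower (log2 fold change -0.87, SE 0.25, adjusted p = 0.00575). Cox7a1, Cox8b and Ndufa4l2 had 41, 1 and 4 counts over all libraries.

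ATP synthase has a catalytic F1 head, a rotor with a ring of c subunits in the membrane, and a peripheral stalk that holds the head still. All 5 genes of the head and its central stalk fell, from -0.40 to -0.16 on the log2 scale, and their sum ran from 2687 to 2836 CPM in immature and from 2111 to 2396 CPM in mature libraries. Atp5b, the catalytic beta subunit, had the highest level per length of all 85 genes, at 640 CPM per kb. It held 1299, 1340 and 1382 CPM at the lowest, median and highest of the immature libraries and 1021, 1106 and 1170 CPM in the mature ones. The stages did not overlap (log2 fold change -0.26, SE 0.04, adjusted p = 2.24e-05). Atp5c1, the gamma subunit that turns within the head, ran from 322 to 351 CPM (median 331) in immature and from 227 to 279 CPM (median 254) in mature libraries. It fell by 24.2% without overlap (log2 fold change -0.40, SE 0.05, adjusted p = 1.20e-06).

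The peripheral stalk genes moved with the head. All 4 fell, with a median log2 fold change of -0.25. Atp5o, which caps the head and ties it to the stalk, ran from 75.9 to 87.4 CPM (median 80.35) in immature and from 52.5 to 66.0 CPM (median 59.0) in mature libraries. It fell the most of complex V, without overlap (log2 fold change -0.44, SE 0.05, adjusted p = 9.51e-07). Of the 3 small membrane subunit genes Atp5k, Atp5j2 and Atp5l, the first 2 fell. Atp5l did not pass (log2 fold change -0.11, SE 0.07, adjusted p = 0.178), and 68.5% of its 50-base windows are shared with other transcripts. It passed as lower with upper quartile scaling (-0.23, adjusted p = 0.00763) and with library sizes alone (-0.34, adjusted p = 0.000214).

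The c ring is made from one protein that 3 genes encode, with different leader peptides, and all 3 fell. Atp5g1 ran from 106 to 117 CPM (median 110) in immature and from 79.5 to 93.8 CPM (median 89.8) in mature libraries, without overlap (log2 fold change -0.33, SE 0.05, adjusted p = 9.52e-06). Atp5g3 ran from 187 to 209 CPM (median 198) in immature and from 153 to 175 CPM (median 161) in mature libraries, again without overlap (log2 fold change -0.28, SE 0.04, adjusted p = 8.53e-06). Atp5g2 ran from 108 to 130 CPM (median 120) in immature and from 89.0 to 117 CPM (median 102) in mature libraries, where the stages overlapped (log2 fold change -0.23, SE 0.06, adjusted p = 0.00318). Counts of Atp5g2 and Atp5g1 are uncertain, since 100% and 66.0% of their 50-base windows occur in other transcripts, chiefly of pseudogenes. None of the windows of Atp5g3 is shared. The 3 promoters are printed together because the genes encode one mature protein and fell together, while their windows differ in the cores they hold. They lie at chr11:96075632-96075881, chr15:102671048-102671297 and chr2:73911327-73911576, all on the minus strand. Atp5g1 holds none of the 4 cores, Atp5g2 holds the NRF1 core ending 32 bases before its RefSeq start, which is inside the GENCODE gene, and Atp5g3 holds that of the estrogen-related receptors, on the opposite strand, ending 43 bases before its start.
Atp5g1: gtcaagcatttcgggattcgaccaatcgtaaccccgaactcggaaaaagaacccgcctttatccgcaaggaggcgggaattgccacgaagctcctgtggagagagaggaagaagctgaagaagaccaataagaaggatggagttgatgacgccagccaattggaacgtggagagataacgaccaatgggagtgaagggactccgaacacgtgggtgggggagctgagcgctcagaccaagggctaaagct
Atp5g2: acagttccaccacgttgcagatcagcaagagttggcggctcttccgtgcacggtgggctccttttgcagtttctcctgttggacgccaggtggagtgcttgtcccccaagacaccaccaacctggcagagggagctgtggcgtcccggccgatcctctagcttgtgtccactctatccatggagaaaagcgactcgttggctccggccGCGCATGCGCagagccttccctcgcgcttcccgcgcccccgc
Atp5g3: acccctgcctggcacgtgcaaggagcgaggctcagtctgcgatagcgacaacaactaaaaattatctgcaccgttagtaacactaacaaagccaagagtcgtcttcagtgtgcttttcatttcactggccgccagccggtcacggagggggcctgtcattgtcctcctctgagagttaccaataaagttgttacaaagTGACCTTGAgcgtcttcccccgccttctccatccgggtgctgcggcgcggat

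**Figure D5:**
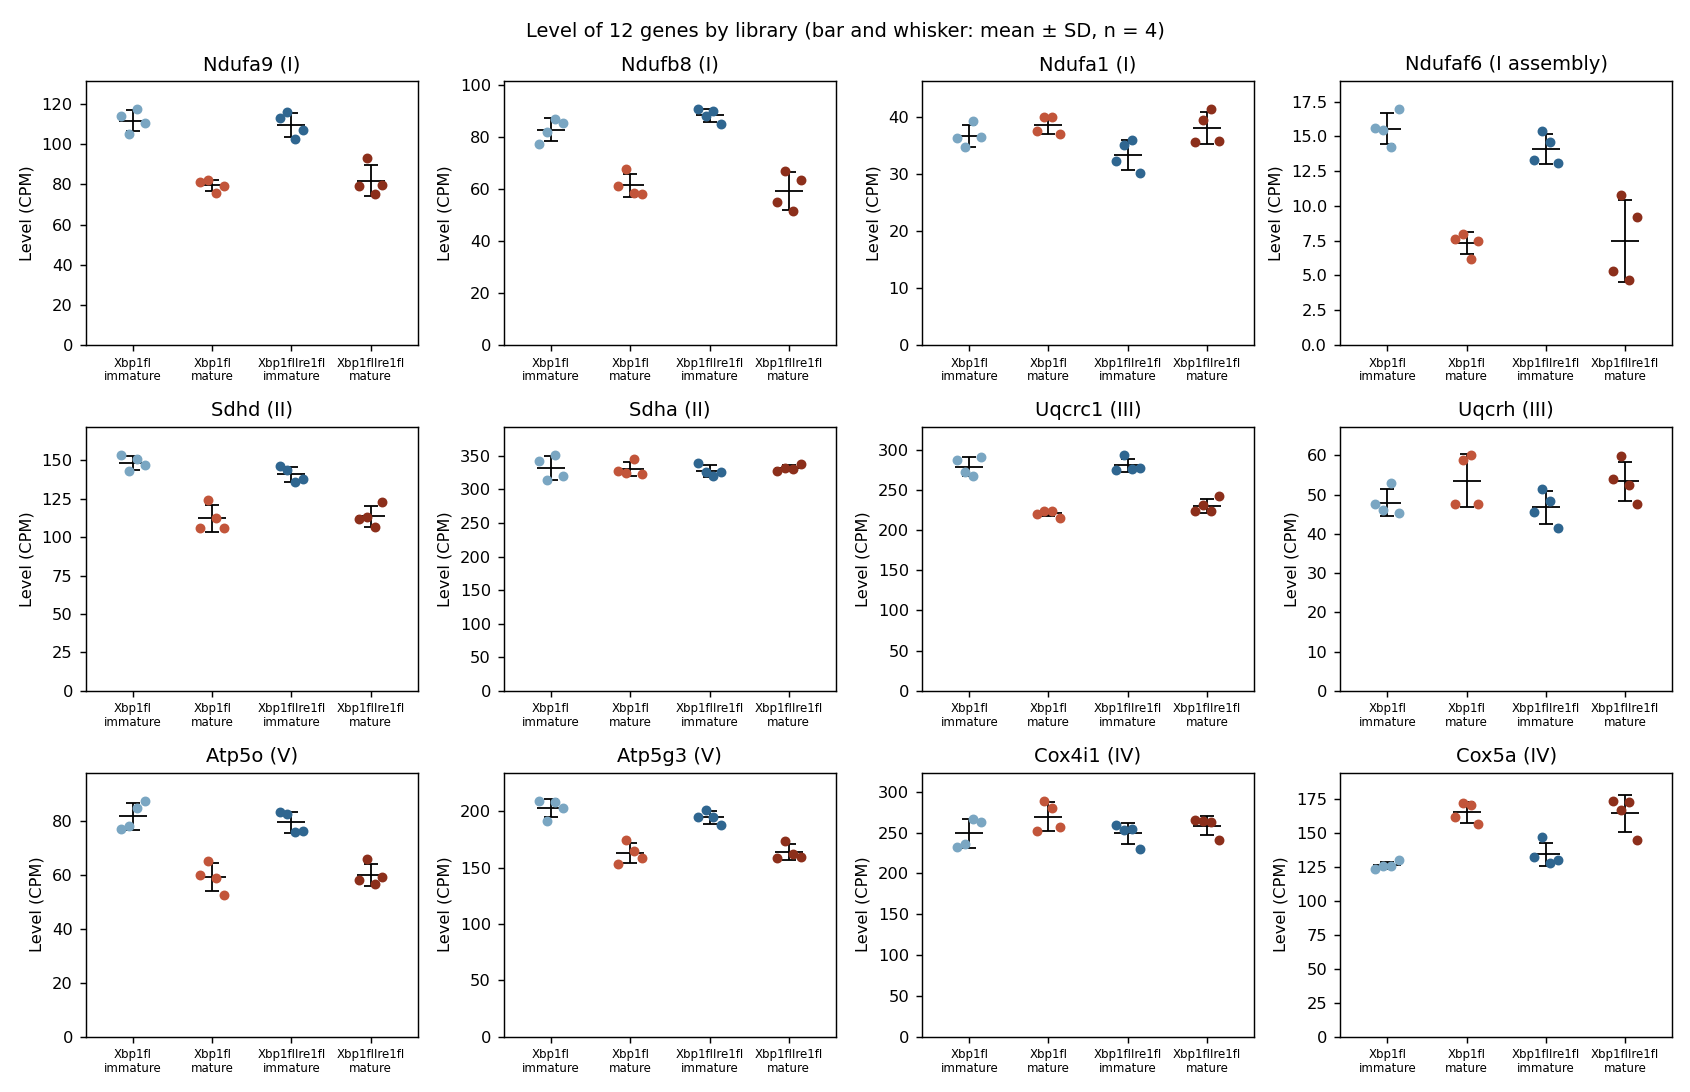
Level of 12 genes in CPM (vertical axes, from 0) in each library of the 4 groups (horizontal axes), with the complex in the panel title. Points are libraries, and bars with whiskers are the mean and SD (n = 4). Ndufa9, Ndufb8, Ndufaf6, Sdhd, Uqcrc1, Atp5o and Atp5g3 separate the stages in both genotypes, Sdha and Cox4i1 overlap, and Cox5a is higher in mature cells.

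The stage difference was then compared between the genotypes, whose libraries are separate. Within Xbp1fl, 58 of the 85 genes fell and 1 rose, and over all genes 28.3% were lower and 28.4% higher. Within Xbp1flIre1fl, 57 fell and 2 rose (Cox5a and Ndufa1), beside 26.1% and 27.4% of all genes. In both genotypes 52 genes (61.2%) passed as lower, which 22.8% of all genes did. Cox5a alone passed as higher in both, beside 2880 of all 11978 genes. The 2 log2 fold changes had the same sign in 82 of 85 genes, beside 10684 of all 11978 genes. Their Pearson correlation was 0.846 across the 85 genes and 0.939 across all genes tested. Both are given as a description, since genes are not independent replicates. The count in Xbp1flIre1fl ran from 48 to 66 lower and from 1 to 3 higher genes when single libraries were left out, and that in Xbp1fl from 47 to 60 lower. With same-numbered libraries as blocks, 60 fell and 1 rose in Xbp1fl, beside 3560 lower and 3536 higher of all 11978 genes. In Xbp1flIre1fl 63 fell and 3 rose, the third being Uqcrh, beside 3340 and 3448 of all genes.

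A test of the difference itself, the interaction of stage and genotype, called 0 of 85 genes in edgeR, 0 at an unadjusted p under 0.05, and 0 in DESeq2. Over all genes, 0% were called. Between genotypes in immature cells 0 of 85 genes passed in edgeR, beside 0.134% of all genes, and DESeq2 also called 0. Cox7a2l alone had an unadjusted p under 0.05 there (log2 fold change -0.17, SE 0.08, adjusted p = 1.00). In mature cells 0 of 85 passed in edgeR, 0 at an unadjusted p under 0.05 and 0 in DESeq2, beside 0.142% of all genes. Missing the threshold does not show that the genotypes are alike. The interaction was 0.03 (SE 0.08) on the log2 scale for Atp5b, 0.07 (SE 0.10) for Ndufa9 and -0.09 (SE 0.09) for Cox5a.

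Genes around the respiratory chain, from lists outside the name rule, are read against the 34.2% of all genes called lower and 33.4% called higher. With upper quartile scaling these shares were 43.7% and 26.8%, and with library sizes alone 50.9% and 22.7%. Of 8 carriers and further subunits 4 fell and 2 rose (5 and 1 with either other scaling), which is near those shares. Cycs, the electron carrier cytochrome c, fell (log2 fold change -0.47, SE 0.07). The ATP and ADP carriers of the inner membrane parted: Slc25a5 fell by 0.42 on the log2 scale (SE 0.05) and Slc25a4 rose by 0.39 (SE 0.04). Slc25a3, the phosphate carrier, rose by 0.15 (SE 0.04), but stood at 0.02 and -0.08 with the other scalings, where it did not pass. Of 7 further complex I assembly genes 5 fell and none rose, among them Tmem186 (-0.71) and Ecsit (-0.55).

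Among 34 assembly genes of complexes II to V, 20 fell and 6 rose, beside 34.2% and 33.4% of all genes. With upper quartile scaling 24 fell and 4 rose, and with library sizes alone 24 and 3. Sdhaf1, an assembly factor for the iron-sulphur subunit of complex II, rose from 10.4 ± 0.881 to 58.6 ± 14.4 CPM (SD, n = 8 each), with a log2 fold change of 2.49 (SE 0.14, adjusted p = 3.18e-10). Sdhaf2, which helps attach flavin to Sdha, rose by 0.63 (SE 0.06), and Tmem70, an ATP synthase assembly factor, by 0.69 (SE 0.07). In contrast Lrpprc, which stabilises mitochondrial mRNA, fell by 0.52 on the log2 scale (SE 0.06), and the complex III factor Uqcc2 fell by 0.59 (SE 0.08).

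Other routes of electrons into ubiquinone also parted. Etfdh, which passes electrons from fatty acid oxidation, rose from 25.1 ± 2.85 to 57.4 ± 10.2 CPM (SD, n = 8 each; log2 fold change 1.20, SE 0.10, adjusted p = 1.05e-08). The other four of the 5 genes fell, with Dhodh at -0.77 and Etfb at -0.59. Of 16 citric acid cycle genes 11 fell and none rose, beside 34.2% of all genes lower and 33.4% higher. With upper quartile scaling 14 fell, beside 43.7% of all genes, and with library sizes alone 16 fell, beside 50.9%. Idh3a, a subunit of isocitrate dehydrogenase, fell by 0.78 on the log2 scale (SE 0.07) and the fumarase gene Fh1 by 0.73 (SE 0.07). Of 16 regulators of mitochondrial genes 9 fell and 6 rose, again beside 34.2% and 33.4% of all genes. Under the other scalings 9 fell each time, beside 43.7% and 50.9% of all genes, and 5 and then 2 rose, beside 26.8% and 22.7%, so the list was near the background there. Gabpb1, the partner of GABPA, rose by 0.97 (SE 0.09), and GABPA's own gene Gabpa fell slightly (-0.11, SE 0.04). Nrf1 did not pass (0.08, SE 0.07; -0.04 and -0.14 with the other scalings), and Polrmt, the mitochondrial RNA polymerase, fell by 0.55 on the log2 scale (SE 0.08).

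The genes outside the rule whose levels followed the mean of the 85 most closely over the 16 libraries were Tmsb10, Dpcd, Snrpg, Rpl36al and Nop10, with Pearson r from 0.977 to 0.984. All 5 were lower in mature cells. Within the set, Cox5a ran against that mean (r = -0.70), as did Ndufa1 (-0.33), Uqcrh (-0.18) and Cox4i1 (-0.10). Sdha, Cox6a2, Atp5s and Cox7a2l were near zero (r from -0.01 to 0.08), and the other 77 genes had r of at least 0.20. These libraries share the split into stages, so the values describe that split. The 85 genes have short transcripts (median 780 bases, against 2738 over all genes tested) and high levels (median 58.8 against 22.2 CPM). Across 11903 genes the log2 fold change had a Spearman rho of 0.115 with transcript length, and the part of length in the result was not tested.

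Reads shared between near-identical gene copies could blur single genes, so the genes were divided by shared sequence. Of the 57 genes with at most 5% of their 50-base windows in other transcripts, 45 fell and 2 rose (median log2 fold change -0.28). Of the other 28 genes, 21 fell and 1 rose (median -0.30). Over all genes tested, 34.2% were lower and 33.4% higher. A further fit left out the 2 mature libraries of lowest Ccr7 (Xbp1flIre1fl replicates 2 and 4, at 6574 and 4988 CPM), a choice made after seeing the data. There 69 genes fell and 2 rose, beside 34.7% of all genes lower and 33.9% higher.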

How the data were processed

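RNA from sorted splenic cDC1s was sequenced in 16 libraries. Tools in the submitters' processing notes are TopHat2 2.1.0, SAMtools 0.1.19, Trimmomatic 0.35, FastQC 0.11.4 and limma 3.42.2, with mm10 as the build. The read counter, the annotation and the strandedness are not given in the sources used here. The authors deposited raw counts per gene symbol for 24421 genes, which were used for all tests. They also deposited log2 values for 11843 genes, which matched log2 CPM plus a constant per library (residual SD at most 0.0298 over genes) and served to choose the genes and as an alternative.

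Counts were analysed with edgeR 4.0.16 in R 4.3.3 (filterByExpr, TMM, robust quasi-likelihood fit, 1 mean per group, 12 residual degrees of freedom). P-values were adjusted by Benjamini-Hochberg over 11978 genes, with a threshold of 0.05. SEs were obtained from the F statistic and the size of the log2 fold change. Levels are TMM-scaled CPM, and levels between genes are given per kb of the shortest principal GENCODE vM21 transcript. Symbols of 24018 of 24421 genes matched GENCODE. Upper quartile scaling, library sizes only, other filters, DESeq2 1.42.0, limma 3.58.1 on the log2 values, a replicate block and single-library omissions were the alternatives. The labels give replicate numbers 1 to 4 in each group and no meaning for them. Deviations of same-numbered immature and mature libraries were correlated in 8 of 8 pairs within a genotype (r 0.27 to 0.52), so the numbers were taken to pair the stages within a genotype, from the data and not the design. Blocks of such pairs were added after seeing the data. The test was checked on simulated data.

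The 85 genes, the gene lists and the cell markers were chosen with earlier results of these data known. Named genes were, per complex, the 2 genes of smallest adjusted p per direction, the one of highest level per kb, those over 1.5-fold, those that rose, and listed isoform families. Other genes were named after their values were seen, and 1 gene is not reported here by name. Within groups the 24 pairs of libraries differed beyond sampling noise (chi-square per degree of freedom 5.23 to 57.1), and all were kept as separate libraries. Floors of 3 counts cover counting error only.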

Additional observations from a re-analysis of the deposited data

Results flagged for a closer look

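The 148 sets checked were the 4 libraries of a group, for each named gene and for each summed level. In 4 sets a library stood apart from the others by Dixon's criterion for groups of 4. Chance flags about 1 in 20 such groups, and the sums share genes with other sets. In immature Xbp1flIre1fl cells, Cox7b was 65.7 CPM in replicate 4, while the others began at 75.2 CPM. In the same group Uqcrc1 was 293 CPM in replicate 2 and at most 277 CPM in the others. In mature Xbp1flIre1fl cells, Cox4i1 was 241 CPM in replicate 4, while the others began at 263 CPM. There Cox6a1 was 208 CPM in replicate 2 and at most 167 CPM in the others; without that library Cox6a1 passed as lower (log2 fold change -0.14, edgeR adjusted p = 0.0447). Both mature libraries were also the ones of lowest Ccr7 (6574 and 4988 CPM), and the part of this in the values was not tested.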

How the results depend on the processing

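The count of lower genes (66) stayed between 66 and 80 under every alternative run, and the same 66 genes were lower each time. With upper quartile scaling and library sizes alone all genes moved down together, so those 66 could hardly lose their calls there. Over all genes 43.7% and 50.9% were then called lower, in place of 34.2%. Higher genes numbered 1 in place of 3 with upper quartile scaling, with library sizes alone and without the filter, and 1 to 3 when single libraries were left out. Within Xbp1flIre1fl they numbered 1, 0 and 1 in place of 2 under those settings, 1 without the 2 mature libraries of lowest Ccr7, and 1 to 3 with single libraries left out. Complex IV had 10 lower genes with upper quartile scaling and 12 with library sizes alone, in place of 5. The log2 ratio of summed levels with upper quartile scaling was -0.35 for all genes, -0.28 for complex II, -0.33 for III, -0.15 for IV and -0.39 for V; with library sizes alone it was -0.46 for all, -0.56 for I, -0.71 for the assembly factors, -0.39 for II, -0.43 for III, -0.26 for IV and -0.49 for V. The median of all genes also moved, from -0.01 under TMM to -0.13 with upper quartile scaling and -0.23 with library sizes alone. Signs turned for Cox4i1 (-0.039 and -0.14 with upper quartile scaling and library sizes alone), Cox7a2l (-0.040 and -0.14), Sdha (-0.12 and -0.22, -0.012 without the filter, -0.0050 without the libraries of lowest Ccr7, -0.0093 to 0.014 with single libraries left out), Ndufa1 (-0.094 with library sizes alone) and Uqcrh (-0.049). Of 30 named genes, 22 kept direction and call in all alternatives.

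Between genotypes, 6 of 16 pairs of same-numbered libraries had deviations correlated over 0.1 (range -0.08 to 0.38), so the numbers were not taken as a pairing there. With the number alone as replicate block, 68 genes were lower and 3 higher, beside 34.9% and 33.9% of all genes. Blocks within a genotype gave the same 68 and 3. Neither moved a count of calls by over 1.5 times or changed a call other than those of Atp5sl and Uqcr10 in the mean of both genotypes; within Xbp1fl, 1 gene (Atp5f1) lost its call with blocks within a genotype. Genotypes could not be compared within such blocks. Depth limited Cox6a2, with 3 to 25 counts per library.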
